A study of Mus musculus with 2 samples.

Results

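Mitochondrial ribosomal protein genes were taken as the protein-coding GENCODE genes of the mouse build mm10 whose symbol starts with Mrpl or Mrps followed by a digit. There were 78 such genes among 21911 protein-coding genes, on 17 chromosomes, with 11 on chromosome 11 and 8 on chromosome 17. Open chromatin was mapped by DNase-seq, in which the enzyme DNase I cuts accessible DNA, in gastrocnemius (calf muscle) from male adult B6CASTF1/J mice of 18 to 20 months. B6CASTF1/J is a first-generation hybrid of C57BL/6J and CAST mice, and the values do not separate its alleles. The 2 samples, replicate 1 and replicate 2, formed 1 group without treatment, genotype contrast or control, so no difference between conditions was tested. They are labelled as biological replicates 1 and 2, and they share a donor label but come from distinct biosamples. Whether they come from 1 animal could not be worked out, so the spread between them may be technical.

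Mitochondria translate the few proteins encoded in their own DNA on dedicated ribosomes. All protein parts of these ribosomes are encoded in the nucleus, made in the cytosol and imported, so the 2 genomes have to be read in step. Many of the proteins descend from bacterial families, and others are found in mitochondrial ribosomes alone. In muscle the products of this machinery are core subunits of the respiratory chain, which supplies ATP for sustained contraction.

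The members divided by known role into 30 proteins of the large subunit from bacterial families, 21 large-subunit proteins specific to mitochondria, 17 small-subunit proteins from bacterial families and 9 small-subunit proteins specific to mitochondria. Mrps30 and Mrps18a carry small-subunit symbols and were placed in the large subunit, where their products sit. Mrps36 was kept as a member by name, since its product belongs to the 2-oxoglutarate dehydrogenase complex of the citric acid cycle.

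Short sequence elements recur in these promoters, and the sites are shown first because the later counts rest on them. All are reference sequence of mm10 (GRCm38.p6), read 5′ to 3′ on the strand of the gene and searched on both strands. RefSeq promoter sequences, from 250 bases before to 50 bases after the start, were matched for 69 of the 78 members. NRF1 is an activator of nuclear genes for mitochondrial proteins, and its palindrome, AT flanked by GCGC on both sides (capitals), was found in 3 of the 69 promoters (4.35%, background 2.02%). Both replicates had a footprint, a short stretch protected from cutting, over every base of these 3 matches. Coverage of this palindrome was common: 332 of 380 matches (87.4%) near starts of genes with a peak in both replicates had at least 50% of their bases footprinted in both.
Mrpl32 (chr13:14613109-14613130, minus strand): acccttGCGCATGCGCaagagg
Mrpl39 (chr16:84735354-84735375, minus strand): agaggcGCGCATGCGCccccgc
Mrpl9 (chr3:94443302-94443323, plus strand): gcagctGCGCATGCGCggggtc

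YY1 is a zinc finger factor that binds near many start sites. Its letters AAGATGGC, or the complement GCCATCTT, were found in 12 of 69 promoters (17.4%, 95% exact interval 9.32 to 28.4), against 4.43% of 10648 promoters of genes with a promoter peak in both replicates. In 8 of the 12 the letters read in the sense of the gene, and all 8 lay after the RefSeq start, between 12 and 37 bases. Of these 8, the matches of Mrpl35, Mrpl49, Mrps18a, Mrps24, Mrps27 and Mrps7 lay in a coding exon. Those of Mrpl37 and Mrpl42 lay in an untranslated part of an exon. Among other genes with a promoter peak in both replicates, 337 of 478 matches (70.5%) read in sense, and 65.9% of these lay after the start. The remaining 4 of the 12 member matches read antisense and lay before the start. All 4 belong to genes with a divergent partner, and the same share among other genes is not given here. The matches of Mrpl32, Mrps11 and Mrps12 had their middle 36, 61 and 15 bp past the start of their partners Psma2, Mrpl46 and Sars2, on whose strand they read in sense. The Mrpl36 match lay far from its partner, with its middle at -2441 bp from the nearest Ndufs6 start. A footprint touched 5 and 4 of the 12 matches in replicates 1 and 2.
Mrpl32 (chr13:14613266-14613285, minus strand): cgctctGCCATCTTtacccg
Mrpl35 (chr6:71823748-71823767, minus strand): ggctgcAAGATGGCggcttc
Mrpl36 (chr13:73330973-73330992, plus strand): ccttacGCCATCTTtcttcc
Mrpl37 (chr4:107066827-107066846, minus strand): cgggcaAAGATGGCggcgtc
Mrpl42 (chr10:95501909-95501928, minus strand): tgaagcAAGATGGCgagcgc
Mrpl49 (chr19:6057726-6057745, minus strand): ggcgccAAGATGGCagcagc
Mrps11 (chr7:78783018-78783037, plus strand): ggcgccGCCATCTTtctgtc
Mrps12 (chr7:28742007-28742026, minus strand): gacgcaGCCATCTTggagtg
Mrps18a (chr17:46111009-46111028, plus strand): cgttccAAGATGGCggccct
Mrps24 (chr11:5707652-5707671, minus strand): cggcccAAGATGGCgtggtc
Mrps27 (chr13:99344794-99344813, plus strand): cgctccAAGATGGCggctcc
Mrps7 (chr11:115604152-115604171, plus strand): gcggccAAGATGGCtgcccc

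ETS factors such as GABP bind CCGGAAGT, and GABP is a classical activator of respiratory genes. These letters were found in 11 of 69 promoters (15.9%, 8.24 to 26.7), against 8.06% of promoters with a peak in both replicates. Their first base lay between -240 and 2 from the RefSeq start, with a median of -19. Of the 11, 10 lay before it, as did 713 of 941 matches (75.8%) of other genes with a peak in both replicates. From the nearest GENCODE start the picture was mixed. There the matches of Mrpl18, Mrpl3, Mrpl33, Mrpl52 and Mrps26 lay after the start, at 17, 14, 13, 5 and 4 bp, and the others before it. A footprint touched 9 of the 11 matches in each replicate.
Mrpl18 (chr17:12916318-12916337, minus strand): aaaacgCCGGAAGTaggggg
Mrpl27 (chr11:94653730-94653749, plus strand): caagacCCGGAAGTagatct
Mrpl3 (chr9:105053243-105053262, plus strand): aacggaCCGGAAGTggcccg
Mrpl33 (chr5:31613942-31613961, plus strand): catgccCCGGAAGTagtcgt
Mrpl43 (chr19:45006441-45006460, minus strand): ccggaaCCGGAAGTcaccgg
Mrpl51 (chr6:125192104-125192123, plus strand): gctaaaCCGGAAGTatttga
Mrpl52 (chr14:54426904-54426923, plus strand): acgcccACTTCCGGttccct
Mrps18c (chr5:100798596-100798615, plus strand): cacgtgACTTCCGGcccggg
Mrps22 (chr9:98601677-98601696, minus strand): ctcgagCCGGAAGTtgctct
Mrps26 (chr2:130563736-130563755, plus strand): gcggccACTTCCGGgccggg
Mrps27 (chr13:99344731-99344750, plus strand): aggaccACTTCCGGcggagg

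A looser NRF1 form, any 2 bases flanked by GCGC on both sides, which includes the palindrome, was found in 14 of 69 promoters (20.3%, 11.6 to 31.7) against a background of 13.4%, which lies inside that interval. SP/KLF letters (GGGCGG) were found in 34 (49.3%, 37.0 to 61.6), below the 64.8% of promoters with a peak in both replicates. CCAAT, the NFY letters, was as frequent as in other promoters (39.1% against 38.5%), and TATAAA was found in 4 members (5.80% against 6.92%). CREB letters (2.90% against 3.31%), E-box letters CACGTG (7.25% against 10.2%) and myogenic E-box letters CAGCTG (15.9% against 15.4%) stood near the background. No member promoter held the ERR letters TCAAGGTCA, the MEF2 letters or the ZNF143/THAP11 letters, which the background holds in 0.225%, 0.178% and 0.704% of promoters. At 69 promoters, a count of 0 has an upper 95% limit of 5.21%. Without a promoter peak as condition, over all 16522 matched promoters, the shares were 3.29% for YY1, 5.52% for ETS, 9.15% for the loose NRF1 form and 12.9% for TATAAA. A match of letters is a description and shows no bound factor.

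**Figure D1:**
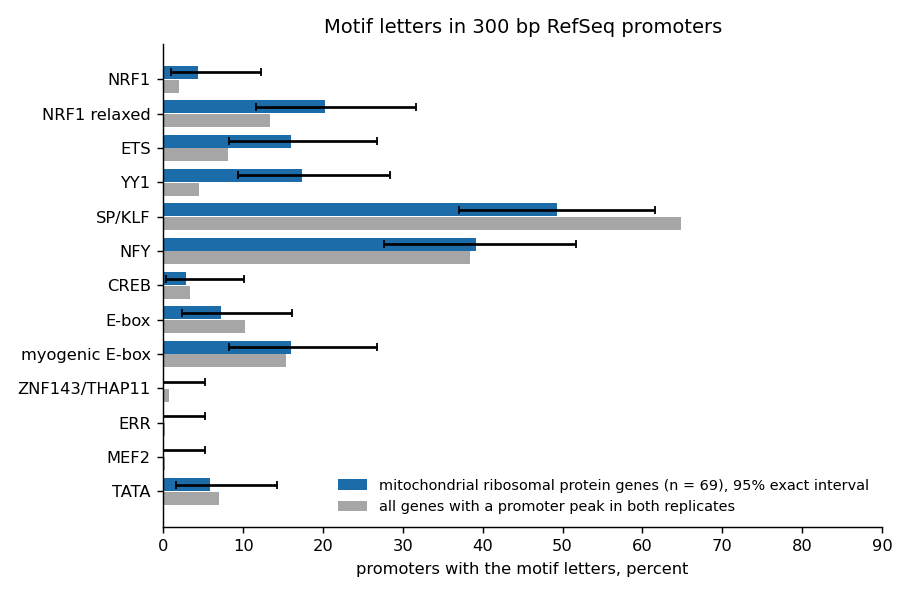
Percent of 300 bp RefSeq promoters holding each motif, for the 69 matched mitochondrial ribosomal protein genes (blue, bars with 95% exact binomial intervals) and for genes with a promoter peak in both replicates (grey). YY1 letters stand at 17.4% against 4.43%, ETS letters at 15.9% against 8.06%, and SP/KLF letters below the background at 49.3% against 64.8%.

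All 78 members had a promoter peak in both replicates, so every gene of the set had accessible DNA within 1000 bp of a start in this muscle. Promoters reached 1000 bp to both sides of each annotated start site, and any peak sharing at least 1 bp with that window was counted. The count was 78 of 78 (exact lower limit 95.4%) in each replicate, against 65.7% of all protein-coding genes in replicate 1, 63.6% in replicate 2 and 62.5% in both. In the stricter of the deposited peak lists all 78 also had a peak, against 61.3% and 58.4%. In bulk tissue, a low signal in every nucleus and a high signal in few nuclei cannot be told apart.

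Accessibility was universal, yet its strength was moderate. The strongest promoter peak had a median signal of 4.15 in replicate 1 (range 1.14 to 10.8) and 4.26 in replicate 2 (1.22 to 12.7), in the authors' unit. Over all genes with a promoter peak the medians were 3.17 and 3.42. Members lay at a median percentile of 61.5 and 59.3 among those genes. Above the median of all such genes, which by definition splits them evenly, were 52 of 78 members in replicate 1 (66.7%) and 46 in replicate 2 (59.0%). The lowest member stood at percentile 22.4 and 20.1, both times Mrps25.

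**Figure D2:**
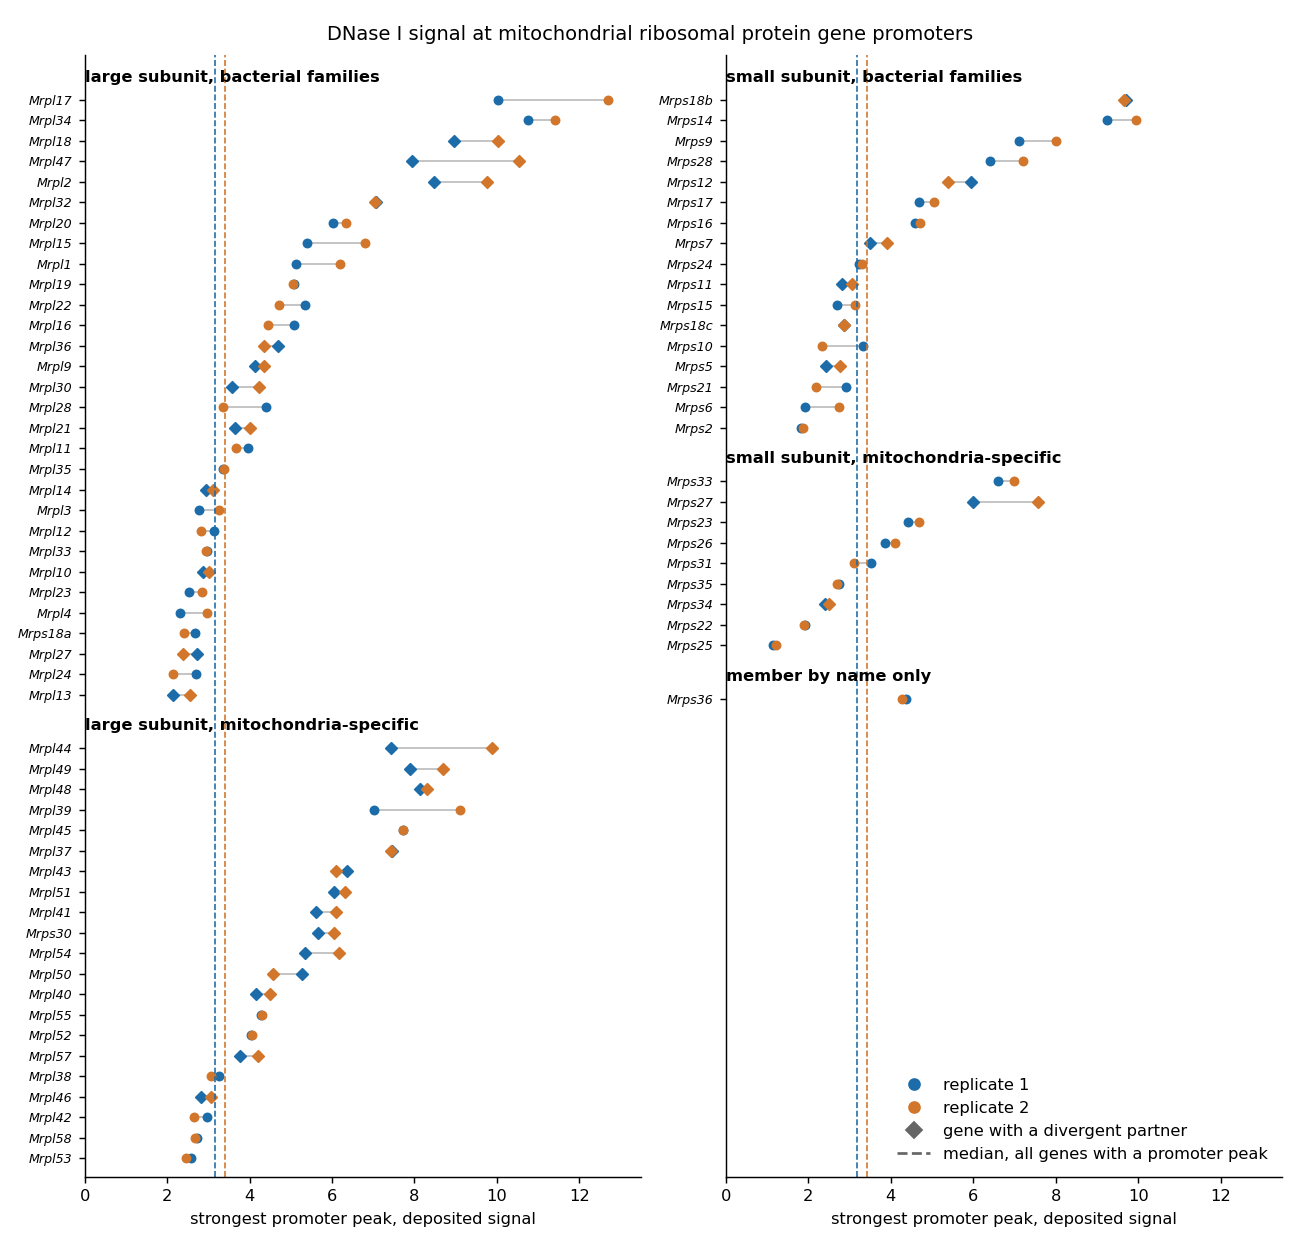
Deposited signal of the strongest promoter peak for each of the 78 genes, in replicate 1 (blue) and replicate 2 (orange), sorted by mean within each ribosomal group; diamonds are genes with a divergent partner and dashed lines the medians of all genes with a promoter peak (3.17 and 3.42). Mrpl17, Mrpl34 and Mrps18b are near the top, Mrps25 is lowest at 1.14 and 1.22, and the large-subunit proteins specific to mitochondria mostly lie right of the dashed lines.

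The other ribosome of the cell was more strongly open. Cytosolic ribosomal protein genes, taken by Rpl and Rps symbols, had a promoter peak in 82 and 83 of 91 genes, with median signals of 5.87 and 6.07 and median percentiles of 77.8 and 76.0. The 8 without a peak in either replicate included Rpl10-ps3 and the paralogue Rpl39l. The symbols also take in 11 genes that are no ribosomal proteins (the S6 kinases and Rps19bp1), which were left out after seeing the data. With them the medians were 5.81 and 5.96 over 91 and 93 genes with a peak, of 102. Nuclear genes of the respiratory chain had a peak in 80 of 84 genes in each replicate, with median signals of 5.31 and 5.38. Mitochondrial ribosomal protein genes thus had a lower median signal than both families in both replicates. These are descriptions over genes of 2 samples, with no test.

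**Figure D3:**
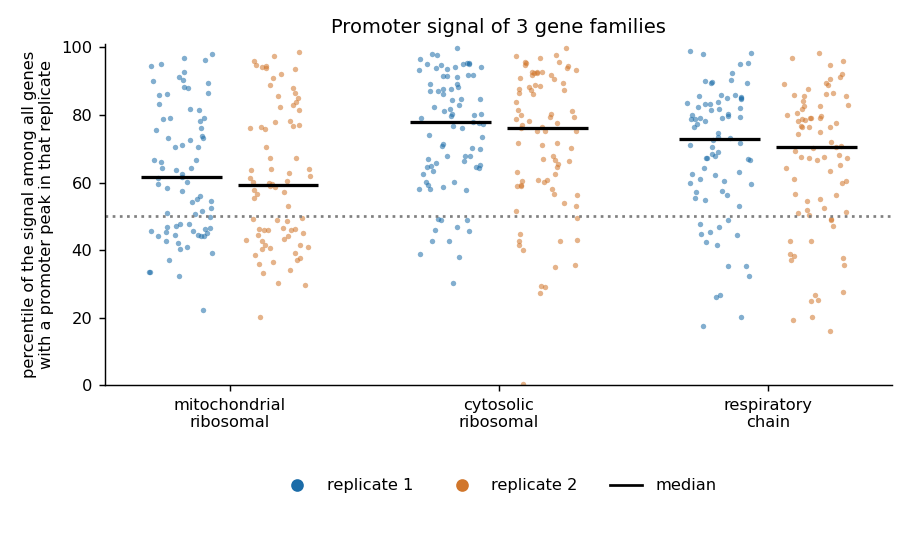
Percentile of each gene's strongest promoter signal among all genes with a promoter peak in that replicate, for mitochondrial ribosomal protein genes, cytosolic ribosomal protein genes and respiratory chain genes; points are genes, shifted sideways for visibility, and black lines are medians. The mitochondrial ribosomal medians of 61.5 and 59.3 lie under the cytosolic medians of 77.8 and 76.0 (S6 kinases and Rps19bp1 left out).

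Between the groups of members, the large-subunit proteins specific to mitochondria were highest, with median signals of 5.34 and 6.04 over 21 genes. Large-subunit proteins of bacterial families had medians of 4.05 and 4.12 over 30 genes. Small-subunit proteins of bacterial families had 3.31 and 3.30 over 17 genes, and those specific to mitochondria 3.52 and 3.10 over 9 genes. Over the whole subunits the medians were 4.41 and 4.36 for the large and 3.41 and 3.22 for the small. The ranges of all 4 groups overlapped widely, and the same order of large over small held in both replicates.

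Most of the 10 strongest promoters belonged to the large subunit, which also holds most of the members. Mrpl34 on chromosome 8 (71464959 to 71465747), a protein with a bacterial counterpart, had signals of 10.8 and 11.4. Mrpl17 on chromosome 7 (105803206 to 105811099), also of a bacterial family, had 10.0 and 12.7. Its promoter holds a loose NRF1 match under a footprint in both replicates. Mrps18b, a small-subunit protein, had 9.70 and 9.65, and Mrps14, a small-subunit protein of a bacterial family, had 9.23 and 9.96. Mrpl18 had 8.95 and 10.0, and Mrpl2, which lies close to the peptidyl transferase centre, had 8.47 and 9.76. The next were Mrpl47 (7.95 and 10.5), Mrpl44 (7.42 and 9.88), Mrpl49 (7.89 and 8.69) and Mrpl48 (8.13 and 8.31). Of these 10, 7 have a divergent partner (42.3% of all members have one), and Mrpl17, Mrpl34 and Mrps14 have none. The Mrpl48 peak was centred at -35 and 25 bp from a start of its partner Rab6a. That of Mrps18b was centred at -167 bp from a start of its partner Ppp1r10.

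At the other end, Mrps25, a small-subunit protein specific to mitochondria on chromosome 6, had signals of 1.14 and 1.22. Mrps2 had 1.82 and 1.86, and Mrps22 had 1.91 and 1.89. Mrps22 is a gene in which recessive variants are known to impair mitochondrial translation in patients. Mrps6 had 1.91 and 2.74, and Mrpl13 had 2.15 and 2.57.

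Members with defined roles spanned most of this range. Mrpl12, the flexible stalk protein of the large subunit, had signals of 3.15 and 2.82, close to the median gene. Mrpl58, a peptidyl-tRNA hydrolase that became a ribosomal protein and rescues stalled ribosomes, had 2.72 and 2.67. Mrps12, which forms part of the decoding centre, had 5.94 and 5.39. The disease genes Mrpl3 and Mrpl44, linked to inherited cardiomyopathy, were far apart, with 2.77 and 3.27 for Mrpl3 against 7.42 and 9.88 for Mrpl44. Mrps16 had 4.59 and 4.70, and Mrps34 had 2.40 and 2.51. Mrps36, of the 2-oxoglutarate dehydrogenase complex, had 4.36 and 4.28 and lay among the ribosomal members.

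The 3 homologues of one bacterial protein, S18, differed in their promoters. Mrps18b had 9.70 and 9.65, in a peak centred at -442 bp from its own start and at -167 bp from the nearest start of its partner. The peak at its own start, centred at -82 bp, had 5.22 in replicate 1 and was not called in replicate 2. Mrps18c had 2.86 and 2.87, and Mrps18a had 2.69 and 2.42. Only a single copy of this protein is found in a bacterial ribosome, whereas the 3 mitochondrial forms take different places in the 2 subunits. Mrps18b and Mrps18c have divergent partners, Ppp1r10 and Helq, and Mrps18a has none. Mrps30, a large-subunit protein despite its name, had 5.66 and 6.04.

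The replicates ranked the members alike. Across the 78 members Spearman's rho between replicates was 0.96 and Pearson's r of log2 signals 0.97, against a rho of 0.98 across 13684 genes with a peak in both. Ratios of replicate 1 to replicate 2 were centred on the all-gene median, because each list has its own scale. On the log2 scale they ranged from -0.42 in Mrps6 to 0.61 in Mrps10, with quartiles of -0.06 and 0.13 (all genes -0.14 and 0.14). After Mrps10 (3.31 and 2.32) the highest ratios were those of Mrps21 (2.90 and 2.19) and Mrpl28 (4.41 and 3.35). After Mrps6 the lowest were those of Mrpl44 and Mrpl47. The strongest peak lay at the same place in both replicates for 77 of 78 members, sharing at least 1 bp. The exception was Mrpl23, whose peaks were centred 70 bp after a start in replicate 1 and at -50 bp in replicate 2.

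Fewer members had several promoter peaks than other genes. More than 1 promoter peak was found in 29 of 78 members in replicate 1 (37.2%, interval 26.5 to 48.9), against 61.9% of genes with a promoter peak. In replicate 2 it was 20 of 78 (25.6%, 16.4 to 36.8), against 56.0%. Among cytosolic ribosomal protein genes the shares were 46.3% and 31.3%, and among respiratory chain genes 48.8% and 35.0%. In all the members held 115 and 105 promoter peaks. The 37 and 27 peaks beside the strongest had median signals of 0.70 and 0.98, near the medians of all listed peaks (0.599 and 0.760), and reached 5.22 and 6.07. The strongest peak had a median width of 220 bp in both replicates, the same as over all genes. The deposited stretches of accessible sites overlapping it had a median length of 805.5 and 693.5 bp, against 850 and 767 bp over all genes with a promoter peak. Most members with several peaks had 2 or 3, and Mrpl48, with start sites spread over a long region, had 6 in each replicate.

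In most members the strongest peak sat near a start site. Its centre lay within 200 bp of a GENCODE start in 71 of 78 members in replicate 1 (91.0%, background 79.1%) and 70 in replicate 2 (89.7%, background 79.9%). The median centre was at -19.5 and -21 bp. By annotation, 48 and 46 of the centres lay outside the gene record, 25 and 28 in an untranslated part of an exon, and 5 and 4 in an intron. Mrpl39, a large-subunit protein specific to mitochondria, had its peak (7.03 and 9.10) 451 bp inside the GENCODE record. RefSeq places the Mrpl39 start 498 bp further in, and from there the same peak lay at -47 bp. For Mrpl47 the centre, 266 and 236 bp inside the GENCODE record, lay at -126 and -156 bp from the RefSeq start. Other members lay farther from the RefSeq start than from a GENCODE start. The Mrpl20 centre moved from 40 to 683 bp, that of Mrpl36 from -2 to -2498 bp and that of Mrps10 in replicate 1 from -16 to -326 bp. Of the 69 matched members, 62 and 61 had the centre within 200 bp of the RefSeq start.

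A divergent promoter, in which neighbouring genes on opposite strands start back to back, was found at 33 of the 78 members (42.3%, 31.2 to 54.0). The share was 11.4% of all protein-coding genes and 17.4% of the 13684 genes with a promoter peak in both replicates. Partners were protein-coding genes with a start within 1000 bp. Respiratory chain genes had a partner in 31 of 84 (36.9%, 26.6 to 48.1), and cytosolic ribosomal protein genes, without the S6 kinases and Rps19bp1, in 16 of 91 (17.6%, 10.4 to 27.0). The large-subunit proteins specific to mitochondria had partners in 13 of 21, large-subunit proteins of bacterial families in 12 of 30, small-subunit proteins of bacterial families in 6 of 17 and those specific to mitochondria in 2 of 9. The group with the most partners was also the group with the highest median signal.

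**Figure D4:**
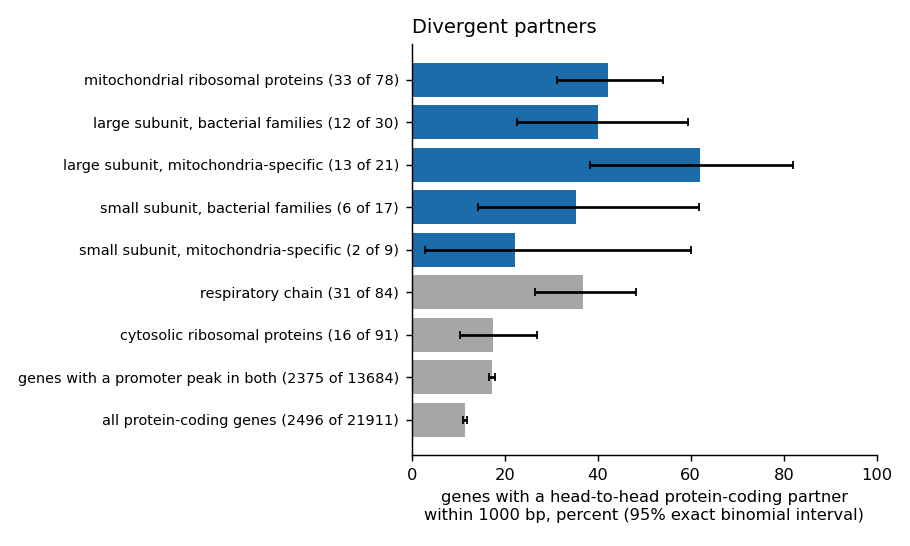
Percent of genes with a protein-coding gene starting head to head within 1000 bp, with 95% exact binomial intervals, for mitochondrial ribosomal protein genes and their groups (blue) and for comparison sets (grey); counts stand beside the names. The members stand at 42.3% and genes with a promoter peak in both replicates at 17.4%.

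Members with a divergent partner had a higher median signal than the rest. The medians were 5.28 and 4.57 over 33 genes, against 3.85 and 3.37 over 45 members without a partner. The same held among all genes with a peak in both replicates, where medians were 5.13 and 5.26 with a partner and 2.97 and 3.11 without. For 32 of the 33 members with a partner, the member and its partner had the same strongest peak in both replicates. The exception was Mrps5 with Zfp661. The other pairs carried 1 signal for both genes. Promoter windows of 1000 bp overlap widely at such pairs, so a common strongest peak was largely fixed in advance. The share over all divergent pairs is not given here. The Mrpl41 peak was centred at -23 and -33 bp from its own start and -912 and -902 bp from that of Pnpla7. A weaker peak, with 2.56 and 2.50, was centred at -72 bp from the Pnpla7 start. Mrps11 and Mrpl46 are partners of each other, so their pair counts under both. For 24 members a gap lay between the starts, with a median of 78 bp (26 to 935), and 22 of the 24 gaps were at most 250 bp. For the other 9 members the transcripts overlapped at their heads.

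Some partners also serve mitochondria. Mrps11 and Mrpl46, of the small and the large subunit, start 30 bp apart and share a peak with signals of 2.82 and 3.07. Mrpl43 shares its peak (6.37 and 6.09) with Twnk, the helicase that unwinds mitochondrial DNA. Mrps12 shares a peak (5.94 and 5.39) with Sars2, which charges mitochondrial tRNA with serine. Mrpl47 and Mrpl36 start beside Ndufb5 and Ndufs6, both subunits of respiratory complex I, with signals of 7.95 and 10.5 for the first pair and 4.68 and 4.36 for the second. Mrps27 starts beside Ptcd2, a mitochondrial RNA-binding protein (5.99 and 7.57).

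Other partners serve other parts of the cell. Mrpl32 shares a peak (7.08 and 7.05) with Psma2, a proteasome subunit, and Mrpl18 (8.95 and 10.0) with Tcp1, a subunit of the cytosolic chaperonin. Mrpl49 shares a peak (7.89 and 8.69) with Fau, which encodes a cytosolic ribosomal protein fused to a ubiquitin-like protein. Mrps18b pairs with Ppp1r10, a regulatory subunit of protein phosphatase 1, Mrpl2 with Klc4, a kinesin light chain, and Mrpl44 with Wdfy1. Mrpl48 pairs with Rab6a, a GTPase of Golgi transport. The strongest Mrpl48 peak was centred at -35 and 25 bp from a Rab6a start, and 443 and 383 bp past the nearest Mrpl48 start. A peak centred at -1 and 6 bp from an Mrpl48 start had 2.90 and 3.87.

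The stretches between the gene records of 5 pairs are printed to show the footprinted bases between divergent starts. The strongest Mrps18b peak lies outside its stretch. They are read on the strand of the member, and capitals mark bases under a footprint in both replicates. Such bases made up 26 of 44 in the Mrps18b and Ppp1r10 stretch, 29 of 58 for Mrpl49 and Fau, 23 of 74 for Mrpl32 and Psma2, 31 of 80 for Mrps27 and Ptcd2, and 35 of 171 for Mrps12 and Sars2. Further pairs have such a stretch that is not printed. Among those, the share ran from 0 of 25 for Mrpl54 and Apba3 to 17 of 28 for Mrps18c and Helq. The Mrps12 stretch holds CCAAT or its complement 4 times, and the ETS letters of the Mrps27 stretch were not covered in replicate 2.
Mrps18b (chr17:35916390-35916433, minus strand): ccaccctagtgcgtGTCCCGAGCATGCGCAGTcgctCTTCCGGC
Mrpl49 (chr19:6057786-6057843, minus strand): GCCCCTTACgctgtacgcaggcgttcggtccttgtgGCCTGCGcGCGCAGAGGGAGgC
Mrpl32 (chr13:14613166-14613239, minus strand): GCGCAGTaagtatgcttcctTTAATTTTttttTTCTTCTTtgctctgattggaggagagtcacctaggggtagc
Mrps27 (chr13:99344706-99344785, plus strand): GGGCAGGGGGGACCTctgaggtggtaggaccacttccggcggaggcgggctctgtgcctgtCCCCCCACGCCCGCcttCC
Mrps12 (chr7:28741821-28741991, minus strand): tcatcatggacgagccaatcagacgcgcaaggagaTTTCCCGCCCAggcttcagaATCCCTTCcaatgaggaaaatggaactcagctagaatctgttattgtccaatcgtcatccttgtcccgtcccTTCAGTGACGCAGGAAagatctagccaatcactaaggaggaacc

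Footprints lay in every member promoter. The median was 7 in replicate 1 (range 3 to 29) and 6 in replicate 2 (1 to 26), and genes with a promoter peak had a median of 7 in each. No member lacked a footprint in either replicate, against 2.52% and 2.07% of genes with a promoter peak. The members held 597 distinct footprints in replicate 1, of which 67.8% overlapped one of replicate 2, and 526 in replicate 2, of which 75.1% overlapped one of replicate 1. Over genes with a peak in both replicates these shares were 58.7% and 66.3%. Footprints and signal were related weakly across the 78 members, with a Spearman's rho of 0.40 and 0.47. Signal and footprints come from the same 2 libraries.

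**Figure D5:**
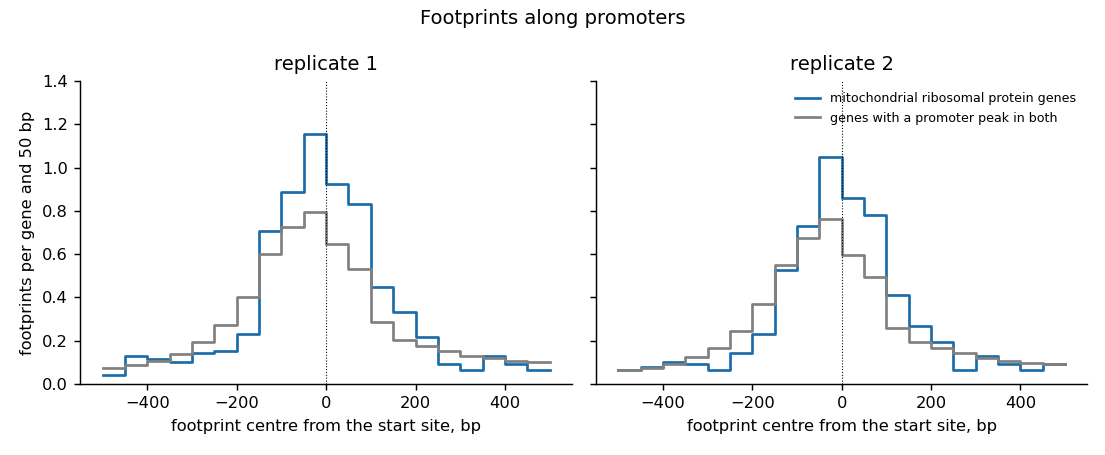
Footprints per gene in 50 bp steps from 500 bp before to 500 bp after the start site, for mitochondrial ribosomal protein genes (blue) and genes with a promoter peak in both replicates (grey), in each replicate. Both sets are highest in the 50 bp before the start, where the members reach 1.15 and 1.05 footprints per gene and the background 0.795 and 0.762.

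The most footprints were counted at Mrpl48 (29 and 26), whose many start sites give it a wider window. Mrps18b had 20 and 17, with 15 of the first overlapping a footprint of the second. Mrpl40, a large-subunit protein specific to mitochondria that starts beside the histone chaperone gene Hira, had 15 and 11. Mrpl41 had 12 and 13, and Mrps12 had 11 and 14. All 5 have a divergent partner, as do 42.3% of all members. Mrps25, the weakest member, had 7 and 2 footprints, none in common. Mrps11 and Mrpl46 share 6 footprints in replicate 1 and 1 in replicate 2.

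Within 1000 bp of a start, 23 of 78 members (29.5%) had an NRF1, ETS or YY1 match with at least 50% of its bases under footprints in both replicates, against 18.7% of genes with a peak in both. The loose NRF1 form gave 15 of these members (19.2%, 11.2 to 29.7, background 13.6%), including Mrpl17, Mrpl44 and Mrpl45. The full palindrome gave 3 (background 2.78%), Mrpl9, Mrpl32 and Mrpl39. ETS gave 6 (7.69%, background 4.39%), which were Mrpl3, Mrpl18, Mrpl43, Mrpl48, Mrpl52 and Mrps18c. YY1 gave 2 (2.56%, background 1.8%), Mrpl37 and Mrps18a. No member had more than 1 of the 3 kinds footprinted, against 1.05% of genes. Per match, 18 of 29 loose NRF1 matches were footprinted in both (62.1%, 42.1% over all genes), 6 of 16 ETS matches (37.5%, 27.6%) and 2 of 23 YY1 matches (8.70%, 6.93%).

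SP/KLF letters were footprinted in both replicates at 34 of 78 members (43.6%), against 52.4% of genes. Per match the order was the other way, with 62 of 180 footprinted in both (34.4%) against 21.9% over all genes. Member promoters were rich in CpG, with a median ratio of observed to expected CpG of 0.818 over 69 genes. Over all 16522 matched promoters, with or without a peak, it was 0.598. The ratio over genes with a promoter peak alone is not given here. Across the 69 members Spearman's rho between this ratio and signal was 0.03 and 0.01.

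The partner genes of mitochondrial translation were open too. All 5 mitoribosome proteins with other symbols had a promoter peak in both replicates, as did all 13 translation factors found, 22 of 22 tRNA synthetases and related enzymes and 10 of 10 genes of mitochondrial DNA and transcription. Among assembly factors 18 of 19 had one, and the GTPase gene Mtg2 had none in either. The share over all protein-coding genes was 62.5% in both replicates. Median signals were 4.14 and 4.27 for the mitoribosome proteins with other symbols, 3.81 and 4.0 for translation factors, 4.44 and 4.21 for assembly factors and 4.90 and 5.16 for synthetases. The medians over all genes with a promoter peak were 3.17 and 3.42. Tufm, the elongation factor that brings tRNA to the ribosome, had 6.67 and 6.07. The regulators Nrf1 (3.01 and 3.47), Gabpa (4.05 and 3.99) and Yy1 (7.68 and 8.4) had promoter peaks, and Esrra, a nuclear receptor of oxidative metabolism, had 14.0 and 14.8. Ppargc1a, the coactivator of mitochondrial biogenesis, had 1.37 and 1.22.

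The lists held 131398 and 91567 peaks and 339656 and 234091 footprints, and sequencing depth was not given. Muscle fibre markers had a promoter peak in 12 of 12 genes in replicate 1 and 10 of 12 in replicate 2, where the fast myosin genes Myh4 and Myh1 had none. Endothelial markers had one in 4 of 4 in each replicate, with signals of 0.437 to 1.05. Fibroblast markers had one in 4 of 4 in each, with signals from 0.305 (Lum) to 4.54 (Col1a1). Macrophage markers had one in 2 of 4, with signals of 0.335 to 0.906. Of all protein-coding genes, 65.7% and 63.6% had one. None of 6 markers of tissues not expected had one. The part of each cell type in the member signals was not tested.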

How the data were processed

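DNase-seq peaks, footprints and sites of 2 gastrocnemius samples were used as deposited, on mm10. The peak column used is the signal the authors deposited per peak. It moves in whole steps of 0.00508 and 0.00559 and its scale is not stated, so levels were compared within a replicate. The footprint files' p-value type column, as deposited by the authors, is a constant 0.01, and in the site files it is a false discovery rate under 0.05. The caller, aligner and depth are not given in the sources used here. The deposited lists hold some overlapping peaks.

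Genes came from GENCODE M21, 1 record per symbol, with all protein-coding start sites. Peaks were assigned within 1000 bp of a start with Python 3.11.15, pandas 2.3.3, pysam 0.24.0 and bedtools 2.31.1. The code was tested on simulated data. For distance, the peak centre was used, since the files give no summit. Intervals are exact (Clopper-Pearson, 95%) and cover counting error over genes only, and members sharing a promoter are not independent. With 1 group and n = 2, no test was run. The 13 motifs were searched on both strands: the NRF1 palindrome and its looser form, as described with the sequences, ETS CCGGAAGT, YY1 AAGATGGC, SP/KLF GGGCGG, NFY CCAAT, CREB TGACGTCA, E-box CACGTG, myogenic E-box CAGCTG, ERR TCAAGGTCA, TATAAA, and 1 consensus of 10 bases each for ZNF143/THAP11 and MEF2. NRF1 forms overlap each other.

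The members and lists were chosen with earlier results of these data known. Named members were the 10 highest and 5 lowest by mean signal rank, the 3 largest and 3 smallest ratios between replicates, the 5 with most footprints, the 5 highest divergent pairs, pairs with mitochondrial partners, the 5 highest with a footprinted NRF1, ETS or YY1 match, and 15 genes with known roles. Other members were named after their values were seen. The translation factor Mtrfr was not matched in the annotation.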

Additional observations from a re-analysis of the deposited data

How the results depend on the processing

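The count of members with a promoter peak was 78 under each of the 9 alternatives run: other windows, the 5'-most start site, the strict list, fewer peaks, the peak centre and either replicate alone. Members with a divergent partner numbered 28 to 37 under 4 alternatives (33 as reported). The median footprint count, 6.5 over both replicates, was 5.0 when footprints outside called peaks were left out. The NRF1 palindrome was footprinted at 3 members under each alternative, and the loose form at 14 to 19 (15 as reported). ETS letters, footprinted at 6 members, were so at 11 with any overlap, and at 9 to 10 with 1 replicate left out. YY1 letters, at 2 members, were so at 5 with any overlap, at 1 with the whole match covered, and at 4 to 6 with 1 replicate left out. Alternatives for the next 3 results were chosen after seeing the data. The share of members with more than 1 promoter peak, 31.4% over both replicates, was 23.1% with a window of 500 bp (all genes 48.0%), 41.0% with 2500 bp (64.6%) and 19.9% with the 50% of peaks of highest signal (41.3%). The median signal percentile, 60.4, was 57.3 in the strict list and 55.1 with the 50% of peaks of highest signal. With the 5'-most GENCODE start of all 78 members, YY1 letters were found in 14.1%, ETS in 15.4% and the loose NRF1 form in 16.7%. The shares over all genes with that choice of start were not computed, so these values have no matching background. The causes of these shifts were not tested. No paired analysis was possible because only 1 group was sampled. Depth was not given, so no limit from it can be stated, and peaks and footprints below the authors' thresholds are not seen here.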
